A study of Mus musculus with 12 samples.

Results

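Collagens, laminins and the genes of fibroblasts and meninges make the connective tissue that wraps sensory ganglia, and their levels were compared between mutant and control dorsal root ganglia at 15 days of age, on single-colour Illumina mouse BeadChips. The genes were chosen by symbol: Col followed by a digit, Lama, Lamb or Lamc followed by a digit, and 18 listed fibroblast and meningeal symbols. The arrays held 93 probes named for 62 such genes (37 collagens, 8 laminins and 17 of the 18 listed symbols), of 25697 probes in all. Each of the 12 arrays carried total RNA of a pool of ganglia from lumbar levels 3 to 6. The 6 mutant pools came from conditional mutants that combine Isl1-Cre with a conditional c-Maf allele, and the 6 control pools from mice labelled wildtype. All mice were on a mixed C57/BL6 and 129Ola background. In Isl1-Cre mice the recombinase follows the transcription factor gene Isl1, which developing sensory neurons express, so the allele is deleted by lineage and not throughout the ganglion. How many mice made a pool is not given, so p-values measure the spread between pools. From the array identifiers, 2 BeadChips were used: mutants 1 to 3 and controls 1 to 3 shared BeadChip 1, and pools 4 to 6 of each genotype shared BeadChip 2.

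Collagens are triple-helical proteins that assemble outside the cell into fibrils (types I, III and V), sheet-like networks (type IV) or beaded filaments (type VI). Laminins are trimers of an alpha, a beta and a gamma chain, and with collagen IV they form the basement membrane that surrounds each Schwann cell, each satellite glial sheath and each vessel of a ganglion. Small leucine-rich proteoglycans such as decorin coat collagen fibrils. The outer capsule of a ganglion is continuous with the meninges, whose cells make certain transporters and enzymes.

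Levels are log2 intensities after background correction and quantile normalization, on which a difference of 1 is a doubling. A probe was kept when its detection p-value was under 0.05 on at least 6 of the 12 arrays. For 40 of the 62 genes, 47 probes passed this filter (23 collagens, 6 laminins and 11 listed genes), among 13177 kept probes of 9223 genes, and 34 of the 40 had a probe detected on all 12 arrays. The remaining 22 genes were not kept, and 17 of them were detected on 0 arrays. Among these 22 were Col4a3, Col4a4, Col4a5 and Col4a6, the collagen IV chains of specialised basement membranes. They also included Col11a1 and Col11a2 of cartilage fibrils, Col10a1 of growth plates, Col9a1 and Col9a3 of fibril surfaces, and Col14a1, the nearest to being kept, with 5 arrays. Col13a1, Col17a1, Col6a6, Col8a2, Lama4, Lamb3, Dpt, Fmod, Gsn, Postn, Aldh1a2 and Slc22a6 completed the list. A probe at background says nothing of the gene beyond its own bound, as for Gsn, Lama4 and Postn, each represented by 1 probe. Fn1, Col6a3, Col12a1, Lama3, Lama5, Col6a4, Col6a5, Col8a1, Col20a1 and Col22a1 had no named probe here.

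Across arrays, 12822 to 13491 probes were detected, and correlations between arrays ran from 0.987 to 0.995. Maf itself stood at -2.89 on BeadChip 1 and -2.85 on BeadChip 2, mutant minus control. All 9 listed sensory neuron markers were kept, and their mean level per pool lay between 11.57 and 11.73 in mutant pools, against 11.64 to 11.78 in control pools. The brightest was Sncg, gamma-synuclein (lowest, median and highest level 14.21, 14.34 and 14.52 in mutant pools, against 14.12, 14.30 and 14.42 in control pools). Markers of other cell types of the dissected tissue were detected too. Few were kept for spinal cord (1 of 7 listed genes), cartilage and bone (3 of 9) and skeletal muscle (3 of 7). The brightest kept gene was Pmp22 for Schwann cells, Esam for endothelium, Acta2 for smooth muscle and Slc2a1 for perineurium. It was Hba-a1 for red cells, Aqp4 for spinal cord and glia, Chad for cartilage and Myh8 for skeletal muscle. Of these lists 2 genes passed the test between genotypes: Myh8, an embryonic and perinatal myosin heavy chain, at -1.25 (limma adjusted p = 0.00801), and Ibsp, bone sialoprotein, at -0.71 (limma adjusted p = 0.0173). Over all 9223 genes 2 passed it as higher and 23 as lower. Myh8 and Ibsp were each 1 of 3 kept genes of its list, and the other genes of both lists lay above 0, with list medians of 0.07 for skeletal muscle and 0.11 for cartilage and bone. For Tubb3, Cdh19, Tek, Acta2, Cldn1, Chad, Actn3, Alas2 and Aqp4, whose genotype differences changed most in size between BeadChips within their lists, the limma adjusted p for that change was 1.0. Because each array holds a mixture of cells, fewer cells of a type and less RNA per cell cannot be told apart.

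None of the connective tissue genes was called between mutant and control ganglia. In limma's fit of all 12 arrays, with Benjamini-Hochberg adjustment over 13177 probes, 0 of 47 member probes passed an adjusted p of 0.05, against 0.235% of all probes (31 of 13177). The smallest adjusted p among them was 0.678. At an unadjusted p under 0.05 there was 1 member probe (2.13%), that of Lama1, against 6.34% of all probes. Of the 40 genes, each represented by its brightest kept probe, 16 lay above 0 and 24 below, with a median difference of -0.03, where all 9223 genes had a median of 0.00. Differences ran from -0.50 for Ptgds to 0.23 for Mgp. Both ends moved with 1 pool: without control 6 Ptgds was at -0.20, and without control 5 Mgp was at 0.42. In the fit of all 12 pools 30 of the 40 were smaller than 0.2 in size. In 0 of 40 genes did all 6 mutant pools lie on one side of all 6 control pools. Over all genes 0.607% were separated with mutants lower and 0.119% with mutants higher. The median standard error was 0.128 for the members and 0.099 for all genes, so the members were measured with more spread between pools than a typical gene.

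**Figure D1:**
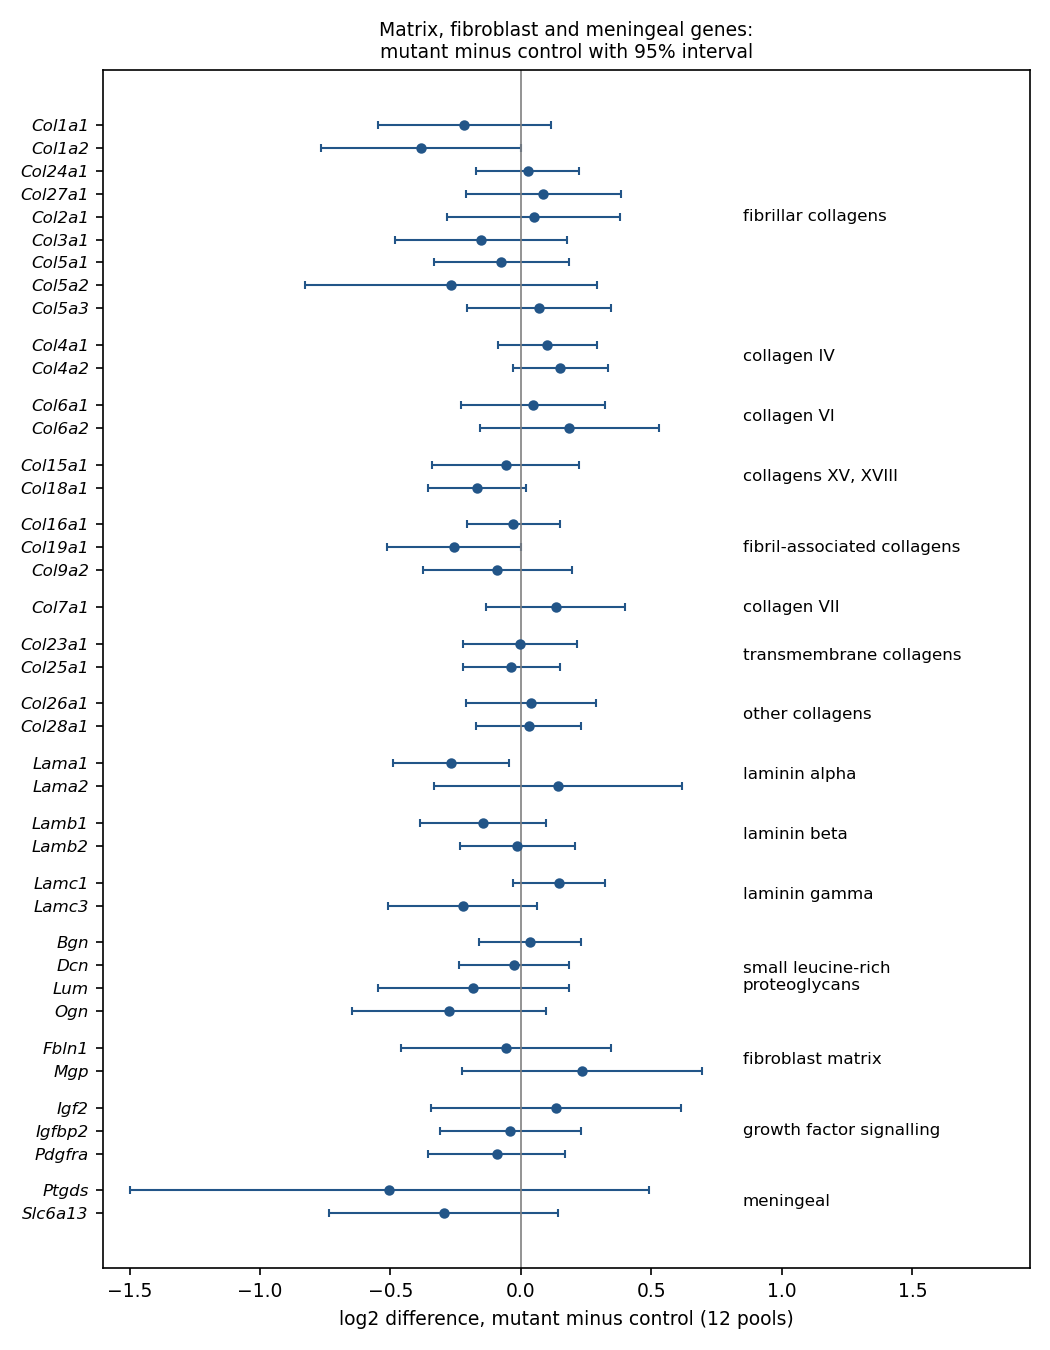
Each point is the log2 difference of a gene, mutant minus control over 12 pools, with its 95% interval from limma, and genes are grouped by role. Differences run from -0.50 for Ptgds to 0.23 for Mgp, and the interval of Lama1 (-0.49 to -0.05) lies wholly below 0.

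None of the 9 kept fibrillar collagens passed the test, and 5 of them lay below 0, with a median of -0.07. Col1a2, the alpha 2 chain of type I collagen, had a lowest, median and highest level of 8.33, 8.82 and 9.48 in mutant pools, against 8.67, 9.26 and 9.44 in control pools. The mutant pools were mostly lower, but mutant 2 was the highest of all 12 and the groups overlapped. The difference was -0.38 (SE 0.18, 95% interval -0.77 to 0.00, unadjusted p = 0.051, limma adjusted p = 0.79). It was -0.28 within BeadChip 1 and -0.48 within BeadChip 2. Its partner chain Col1a1 gave the same 3 levels as 7.75, 7.97 and 8.65 in mutant pools, against 8.03, 8.25 and 8.65 in control pools, a difference of -0.22 (SE 0.15). Col3a1, the single chain of the type III collagen that is laid down with type I, gave 9.06, 9.25 and 10.00 in mutant pools, against 9.16, 9.57 and 9.74 in control pools. Here mutant 2, at 10.00, stood above every other pool, and the other 5 mutant pools reached 9.28. The difference was -0.15 (SE 0.15), and -0.29 without mutant 2.

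The remaining fibrillar chains had smaller or less precise differences. Col5a1, a chain of the type V collagen that sets fibril diameter, lay at 9.57, 9.85 and 10.32 in mutant pools, against 9.73, 9.89 and 10.15 in control pools (difference -0.07, SE 0.12). Its partner Col5a2 had the widest spread of the fibrillar genes, at 4.89, 5.41 and 6.56 in mutant pools, against 5.34, 5.94 and 6.51 in control pools, with a difference of -0.27 (SE 0.26), and was detected on 11 arrays. Col27a1, a minor fibrillar chain detected on 8 arrays, lay at 5.19, 5.37 and 5.70 in mutant pools, against 5.03, 5.25 and 5.79 in control pools. The mutant and control ranges of all of these genes overlapped. Col5a3 (0.07, 9 arrays), Col24a1 (0.03) and the cartilage collagen Col2a1 (0.05, 11 arrays) lay just above 0 by their brightest probes. Another kept probe of Col24a1 (12 arrays) and of Col2a1 (7 arrays) lay below 0, so their sign depends on the probe.

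The windows around the starts of Col1a2 and Col3a1 are shown because their levels moved together across pools (given further on). Each holds the 250 bases before the start and 50 bases from the start on (RefSeq, GRCm38.p6), 5′ to 3′ on the gene's strand. Capitals mark CCAAT, or ATTGG where it lies on the opposite strand. The Col1a2 window (chr6:4505368-4505667, plus strand) holds it 109 bases before the start and, on the opposite strand, at the start itself, and the Col3a1 window (chr1:45311288-45311587, plus strand) holds none.
Col1a2: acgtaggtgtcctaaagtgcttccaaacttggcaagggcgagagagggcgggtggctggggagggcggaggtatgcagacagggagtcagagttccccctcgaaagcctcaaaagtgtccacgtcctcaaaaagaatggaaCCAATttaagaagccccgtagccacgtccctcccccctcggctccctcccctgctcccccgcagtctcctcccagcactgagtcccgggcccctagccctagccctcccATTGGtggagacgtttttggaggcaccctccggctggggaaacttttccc
Col3a1: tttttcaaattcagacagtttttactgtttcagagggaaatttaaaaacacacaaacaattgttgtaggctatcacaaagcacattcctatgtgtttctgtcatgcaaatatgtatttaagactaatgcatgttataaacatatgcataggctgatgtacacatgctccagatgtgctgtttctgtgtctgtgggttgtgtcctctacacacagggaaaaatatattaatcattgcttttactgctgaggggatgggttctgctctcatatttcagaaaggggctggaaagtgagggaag

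Basement membrane collagens and laminins gave small differences of both signs. Col4a1 and Col4a2, the chains of the common collagen IV network, both lay above 0. Col4a1 had levels of 10.82, 10.94 and 11.09 in mutant pools, against 10.64, 10.84 and 11.11 in control pools (difference 0.10, SE 0.09). Col4a2 had 9.57, 9.70 and 10.01 in mutant pools, against 9.41, 9.59 and 9.74 in control pools (difference 0.15, SE 0.08, unadjusted p = 0.0981, limma adjusted p = 0.872). The top level of Col4a2 was in mutant 2 and the lowest in control 2, with the rest intermixed. Col4a1 and Col4a2 are transcribed in opposite directions from starts 21 bases apart, and their windows share 78 bases (chr8:11312777-11313076, minus strand and chr8:11312555-11312854, plus strand, RefSeq, GRCm38.p6). They are printed for this shared region, with capitals as before.
Col4a1: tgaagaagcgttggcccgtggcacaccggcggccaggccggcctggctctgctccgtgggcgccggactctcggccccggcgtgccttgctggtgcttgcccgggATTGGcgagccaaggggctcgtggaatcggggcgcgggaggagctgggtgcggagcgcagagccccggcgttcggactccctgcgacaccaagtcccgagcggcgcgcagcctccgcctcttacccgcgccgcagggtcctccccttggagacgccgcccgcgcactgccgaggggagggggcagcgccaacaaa
Col4a2: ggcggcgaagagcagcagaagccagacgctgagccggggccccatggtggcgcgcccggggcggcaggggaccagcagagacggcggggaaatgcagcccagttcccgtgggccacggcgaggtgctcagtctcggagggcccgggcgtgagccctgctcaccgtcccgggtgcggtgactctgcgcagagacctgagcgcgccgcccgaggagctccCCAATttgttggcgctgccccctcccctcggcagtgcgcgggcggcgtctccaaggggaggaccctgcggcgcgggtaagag

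Lama1, the alpha chain of the first laminin described and found in few adult basement membranes, was the member with the smallest p. Its levels were 5.56, 5.95 and 6.15 in mutant pools, against 6.03, 6.18 and 6.45 in control pools, and the 2 ranges overlapped between 6.03 and 6.15. Mutants 2, 3, 4 and 5 lay under every control pool, while mutants 1 and 6 each lay above at least 2 of the controls. The difference was -0.27 (SE 0.10, 95% interval -0.49 to -0.05, unadjusted p = 0.0213, limma adjusted p = 0.678), with -0.20 within BeadChip 1 and -0.33 within BeadChip 2. Lama2, the alpha chain of the Schwann cell basement membrane, was spread more widely, at 6.69, 7.29 and 8.05 in mutant pools, against 6.75, 7.12 and 7.60 in control pools, and its difference of 0.14 had an SE of 0.22.

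The values of Lamb1, a beta chain of many tissues, are given by BeadChip. On BeadChip 1 mutants 1 to 3 had 7.37, 7.41 and 7.33 and controls 1 to 3 7.54, 7.59 and 8.05, so all 3 mutants were lower there, with a difference of -0.36 (limma unadjusted p = 0.0179, adjusted p = 0.614). Control 3 stood highest, and without it the difference was -0.20. On BeadChip 2 mutants 4 to 6 had 7.50, 7.27 and 7.47 and controls 4 to 6 7.40, 7.30 and 7.32, a difference of 0.07 with overlapping groups. The change of the difference between BeadChips was 0.43 (unadjusted p = 0.0397, limma adjusted p = 1.0). Lamb2, the beta chain of nerve and muscle basement membranes, lay at 7.48, 7.72 and 7.93 in mutant pools, against 7.45, 7.70 and 8.03 in control pools (difference -0.01, SE 0.10). Lamc1, the gamma chain shared by most laminins, lay at 9.86, 9.99 and 10.11 in mutant pools, against 9.63, 9.88 and 10.01 in control pools (difference 0.14, SE 0.08, unadjusted p = 0.101, limma adjusted p = 0.872). Lamc1 was thus slightly higher in mutant pools, with overlap. Lamc3, a gamma chain of fewer laminins, stood at -0.22 (SE 0.13). Markers of Schwann and satellite glia, which rest on these laminins, had 5 of 6 kept genes below 0 (median -0.17). Of the 10 listed, 6 had a named probe and all 6 were kept, while Prx and Sox10 had no named probe. The mean level of the 6 kept genes per pool was 9.45 to 9.61 in mutant pools, against 9.58 to 9.85 in control pools. The part of glia in the laminin levels was not tested.

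No collagen at the borders of basement membranes or on fibril surfaces was called. Col18a1, the source of the endostatin fragment, had 8.93, 9.03 and 9.25 in mutant pools, against 9.10, 9.20 and 9.51 in control pools (difference -0.17, SE 0.09, unadjusted p = 0.0779, limma adjusted p = 0.861). Its mutant pools were mostly lower, and the ranges overlapped. The related Col15a1 stood at -0.06 (SE 0.13). Col19a1, a fibril-associated collagen, had 5.14, 5.28 and 5.55 in mutant pools, against 5.13, 5.65 and 5.88 in control pools (difference -0.26, SE 0.12, unadjusted p = 0.0501, limma adjusted p = 0.788). It was near background: 2 of 6 mutant and 5 of 6 control pools detected it. Col16a1, also fibril-associated, had 10.85, 11.06 and 11.23 in mutant pools, against 10.96, 11.04 and 11.30 in control pools (difference -0.03, SE 0.08), and Col9a2 stood at -0.09 (SE 0.13).

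Filament, anchoring and membrane collagens filled in the rest of the family. Col6a1, a chain of the beaded filaments of type VI, had 9.19, 9.44 and 9.79 in mutant pools, against 9.05, 9.39 and 9.84 in control pools (difference 0.04, SE 0.13), and a second probe gave -0.10. Its partner Col6a2 stood at 0.19 (SE 0.16). Col7a1, of anchoring fibrils, had 6.60, 6.79 and 7.05 in mutant pools, against 6.36, 6.62 and 7.11 in control pools (difference 0.13, SE 0.12). In each of these genes the groups overlapped over most of their range. Col28a1, a von Willebrand domain collagen known from mouse peripheral nerve, had 8.85, 9.19 and 9.37 in mutant pools, against 9.05, 9.09 and 9.29 in control pools (difference 0.03, SE 0.09). Col23a1, a transmembrane collagen, had 7.33, 7.53 and 8.02 in mutant pools, against 7.47, 7.58 and 7.72 in control pools (difference 0.00, SE 0.10). Col26a1 stood at 0.04 and Col25a1, on 6 arrays, at -0.04.

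**Figure D2:**
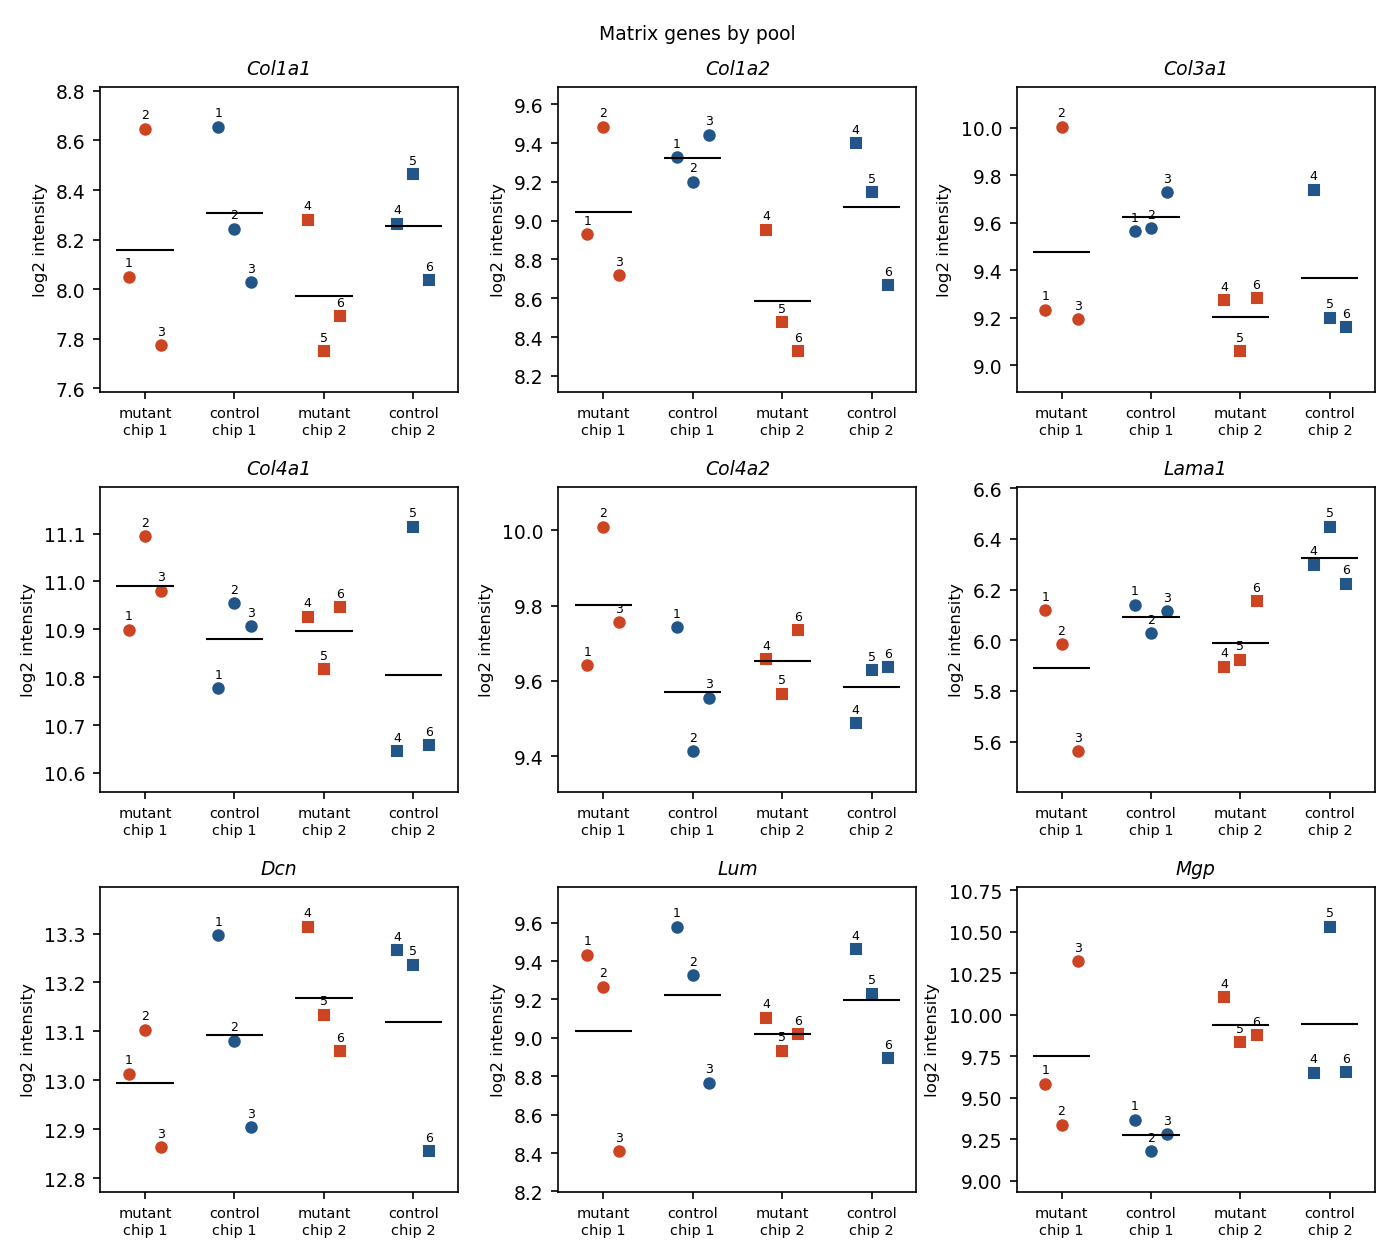
Log2 intensity of 9 matrix genes in each pool, with mutant pools in red and control pools in blue, circles for BeadChip 1 and squares for BeadChip 2, replicate numbers beside the points and a line at each mean of 3. Mutant 2 is the highest pool for Col1a2 (9.48), Col3a1 (10.00) and Col4a2 (10.01), and control 5 for Mgp (10.53).

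The proteoglycans of fibroblasts did not separate the genotypes. Dcn, decorin, had 12.86, 13.08 and 13.31 in mutant pools, against 12.86, 13.16 and 13.30 in control pools, a difference of -0.03 (SE 0.10, 95% interval -0.24 to 0.19), and a second probe gave -0.02. Lum, lumican, had 8.41, 9.06 and 9.43 in mutant pools, against 8.77, 9.28 and 9.58 in control pools (difference -0.18, SE 0.17). Bgn, biglycan, had 9.36, 9.64 and 9.86 in mutant pools, against 9.47, 9.61 and 9.65 in control pools (difference 0.03, SE 0.09). For these 3 binders of collagen fibrils the pools of both groups were intermixed. Ogn, osteoglycin, had 9.36, 9.82 and 10.53 in mutant pools, against 9.77, 10.19 and 10.53 in control pools (difference -0.28, SE 0.17, unadjusted p = 0.135, limma adjusted p = 0.886). All 3 kept Ogn probes lay below 0, at -0.28, -0.21 and -0.22, with overlapping groups in each.

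Matrix Gla protein, Mgp, an inhibitor of calcification, had the highest positive difference of the members. Its levels were 9.34, 9.86 and 10.32 in mutant pools, against 9.18, 9.51 and 10.53 in control pools (difference 0.23, SE 0.21, 95% interval -0.22 to 0.69). On BeadChip 1 the mutants had 9.58, 9.34 and 10.32 and the controls 9.37, 9.18 and 9.28, and on BeadChip 2 the mutants had 10.10, 9.83 and 9.88 and the controls 9.65, 10.53 and 9.65. Control 5 was the highest pool of all. The fibulin and growth factor genes lay closer to 0. Fbln1, a fibulin of elastic and basement membrane matrix, had 6.50, 6.89 and 7.34 in mutant pools, against 6.47, 6.96 and 7.68 in control pools (difference -0.06, SE 0.19). Pdgfra, the growth factor receptor that marks fibroblasts, had 7.83, 8.19 and 8.47 in mutant pools, against 7.94, 8.29 and 8.56 in control pools (difference -0.09, SE 0.12). Neither gene separated the groups. Igf2, a growth factor made by fibroblasts and meninges, had 10.86, 11.14 and 12.06 in mutant pools, against 10.68, 11.03 and 11.88 in control pools (difference 0.13, SE 0.22). Its carrier Igfbp2 had 5.95, 6.18 and 6.33 in mutant pools, against 5.89, 6.15 and 6.60 in control pools (difference -0.04, SE 0.13). Igf2 was led by mutant 3 and by control 2, on the same BeadChip.

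The largest pattern of the whole list was in its 2 kept meningeal genes, whose differences had opposite signs on the 2 BeadChips and did not pass the adjusted test on either. Ptgds encodes the lipocalin-type prostaglandin D synthase that arachnoid cells secrete. On BeadChip 1 mutants 1 to 3 had 7.83, 6.74 and 6.34, against 6.73, 5.69 and 6.20 in controls 1 to 3, with overlap and a difference of 0.76 (SE 0.41). On BeadChip 2 mutants 4 to 6 had 6.21, 5.97 and 6.81, against 8.26, 7.37 and 8.67 in controls 4 to 6. There every mutant pool lay under every control pool, at -1.77 (SE 0.41, 95% interval -2.67 to -0.87, unadjusted p = 0.00106, limma adjusted p = 0.665). The change of the difference, BeadChip 2 minus BeadChip 1, was -2.53 (SE 0.59, unadjusted p = 0.000972, limma adjusted p = 1.0). Over both BeadChips the difference was -0.50 (SE 0.46, unadjusted p = 0.295, limma adjusted p = 0.928).

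Slc6a13, the GABA and taurine transporter GAT2 of the leptomeninges, followed the same order. Mutants 1 to 3 had 6.10, 6.04 and 6.33, against 5.68, 6.24 and 5.69 in controls 1 to 3, a difference of 0.29 (SE 0.17) with overlap. Mutants 4 to 6 had 5.98, 5.68 and 5.84, against 6.41, 6.87 and 6.86 in controls 4 to 6, a difference of -0.88 (SE 0.17, unadjusted p = 0.000276, limma adjusted p = 0.381), and these groups did not overlap. For both genes the controls of BeadChip 2 were high: in Slc6a13 they were the top 3 of 12 pools, and in Ptgds mutant 1 alone stood above control 5. The change between BeadChips was -1.17 (SE 0.25, unadjusted p = 0.000463, limma adjusted p = 1.0), and the difference over all 12 pools was -0.30 (SE 0.20). Ranked by unadjusted p for a change between BeadChips, Slc6a13 was number 2 and Ptgds number 5 of 13177 probes.

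Windows of the 2 meningeal genes are shown because their changes between BeadChips were the largest of the list. Both are RefSeq windows on GRCm38.p6, Slc6a13 at chr6:121300038-121300337, plus strand and Ptgds at chr2:25469700-25469999, minus strand. Capitals mark TGACTCA, the AP-1 site that also forms the core of the longer Maf recognition element, which begins 35 bases before the start of Ptgds. The Slc6a13 window shown holds neither TGACTCA nor TGCTGAC, the flank of that element.
Slc6a13: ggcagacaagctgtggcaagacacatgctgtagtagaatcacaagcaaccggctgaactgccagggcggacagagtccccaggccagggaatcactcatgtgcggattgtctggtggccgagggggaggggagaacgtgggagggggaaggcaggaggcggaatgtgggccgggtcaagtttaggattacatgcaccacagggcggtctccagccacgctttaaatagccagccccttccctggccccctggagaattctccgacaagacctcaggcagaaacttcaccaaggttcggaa
Ptgds: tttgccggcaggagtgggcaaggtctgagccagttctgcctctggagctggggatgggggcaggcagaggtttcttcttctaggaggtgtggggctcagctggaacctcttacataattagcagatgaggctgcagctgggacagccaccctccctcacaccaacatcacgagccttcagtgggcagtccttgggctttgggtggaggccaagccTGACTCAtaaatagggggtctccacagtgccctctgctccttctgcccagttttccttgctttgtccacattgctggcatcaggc

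Other markers of the meninges were read beside these 2 genes. Of 12 listed, 11 had a named probe and 8 were kept, and Zic2, Tbx18 and Alx4 were among those not kept. Their mean level per pool was 6.38 to 6.44 in mutants and 6.20 to 6.26 in controls of BeadChip 1, and 6.11 to 6.39 in mutants and 6.21 to 6.49 in controls of BeadChip 2. The change of the genotype difference between BeadChips was below 0 in 7 of the 8, with a median of -0.24, against a median of 0.01 for all genes. Other lists lay below 0 too. The median was -0.32 for the 2 red cell genes and -0.40 for the fibroblast matrix genes Mgp and Fbln1, all 4 below 0, and -0.22 for the 3 perineurium genes, 2 of them below 0. Foxc2, a forkhead factor of mesenchyme, stood at 0.59 and -0.20 on BeadChips 1 and 2 (change -0.78, unadjusted p = 0.0464, limma adjusted p = 1.0). Ranbp3l, a nuclear export factor found in meningeal fibroblasts, stood at 0.09 and -0.42 (change -0.51, unadjusted p = 0.0523, limma adjusted p = 1.0). Cdh1, E-cadherin, the brightest of the list, stood at 0.01 and 0.00. The part of meningeal cells in the differences of Ptgds and Slc6a13 was not tested.

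**Figure D3:**
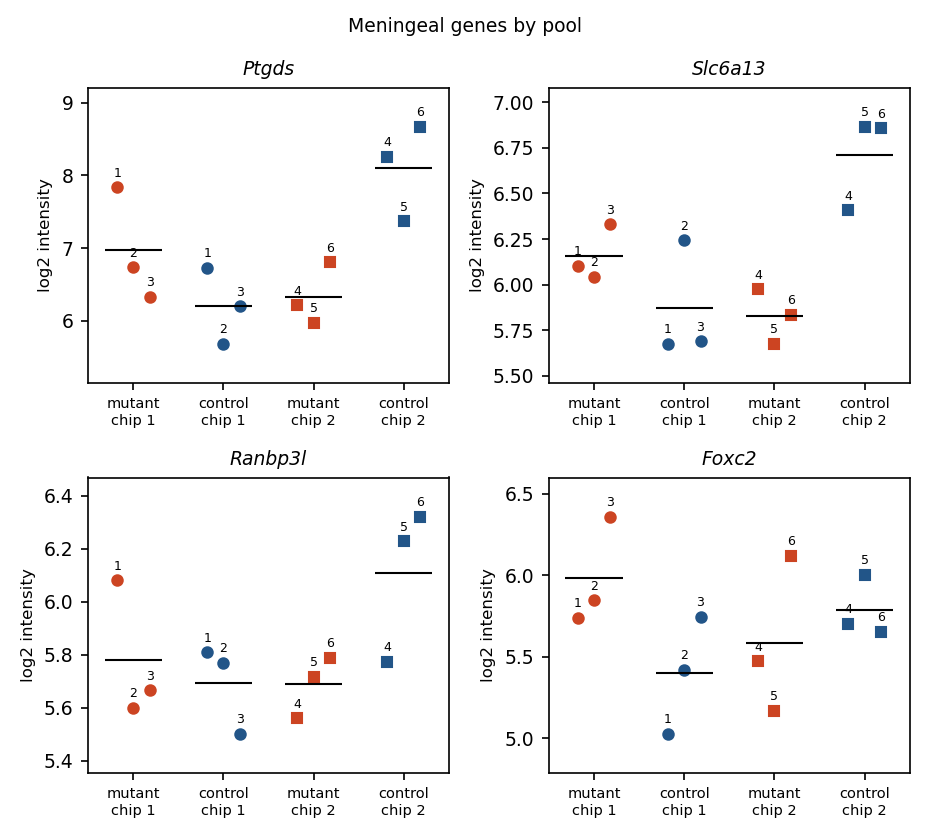
Log2 intensity of 4 meningeal genes in each pool, with mutant pools in red and control pools in blue, circles for BeadChip 1, squares for BeadChip 2, replicate numbers beside the points and a line at each mean of 3. Controls 4 to 6 lie at 8.26, 7.37 and 8.67 for Ptgds, above mutants 4 to 6 (6.21, 5.97 and 6.81), while on BeadChip 1 the mutants have the higher mean.

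Within each BeadChip the median difference of the list stayed near that of all genes. Within BeadChip 1, 0 of 47 member probes were called by limma, against 0.0607% of all probes, and 1 (Lamb1) had an unadjusted p under 0.05, against 6.97%. Within BeadChip 2, 0 were called, against 0.0304%, and 3 (Ptgds, Slc6a13 and Lama1, 6.38%) had an unadjusted p under 0.05, against 2.95%. For the change of the difference between BeadChips 0 member probes were called by limma, against 0% of all probes, and 3 (Slc6a13, Ptgds and Lamb1, 6.38%) had an unadjusted p under 0.05, against 2.82%. Medians of the 40 genes were -0.02 on BeadChip 1 and -0.05 on BeadChip 2, where all genes had 0.00 on both. The median on BeadChip 2 was 0.03 without control 5. That pool had the highest level of all 12 in 11 of the 40 genes and the lowest in 0. Mutant 2 was highest in 7, control 4 lowest in 8 and mutant 1 lowest in 7.

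**Figure D4:**
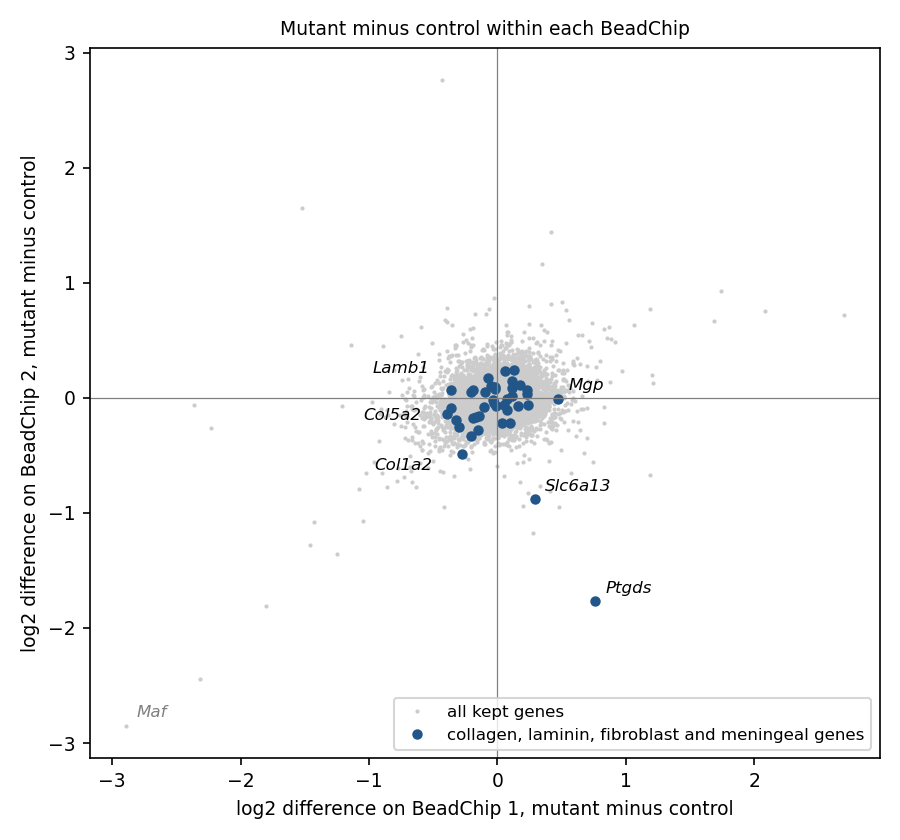
Log2 difference, mutant minus control, on BeadChip 1 (horizontal) against BeadChip 2 (vertical) for all 9223 kept genes in grey and the 40 connective tissue genes in blue. Ptgds (0.76 and -1.77) and Slc6a13 (0.29 and -0.88) lie apart from the other blue points, and Maf (-2.89 and -2.85) lies at the lower left.

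No member was called between the BeadChips themselves. Between BeadChip 2 and BeadChip 1, with both genotypes averaged, 0 of 47 member probes were called by limma, against 0% of all probes. At an unadjusted p under 0.05 there were 4 (8.51%), against 8.30% of all probes, a share near that background. Col5a2 was the first of them: BeadChip 2 pools had 5.50, 6.01 and 6.56 in mutants and 5.97, 6.01 and 6.51 in controls, and BeadChip 1 pools had 5.23, 5.32 and 4.89 in mutants and 5.91, 5.34 and 5.38 in controls. The BeadChip difference was 0.75 (SE 0.18, unadjusted p = 0.00125, limma adjusted p = 0.266). Mgp (0.43) and Ogn (0.36) were also higher on BeadChip 2, and Col1a2 (-0.36) was lower, with limma adjusted p of 0.565, 0.567 and 0.599. Ptgds stood at 0.63 and Slc6a13 at 0.26.

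Genes that process, bind or degrade collagen and laminin were read beside them. Of 87 listed, 78 had a named probe and 55 were kept. In the comparison of genotypes 30 lay above 0 and 25 below, 0 were called by limma, and 5 had an unadjusted p under 0.05. Over all kept genes the last count was 600 of 9223, so no excess is read from these 5, and no gene described here passed the adjusted test. They were Itga11, Pcolce2, Tgfb1, Mmp14 and Ltbp1, a latent TGF-beta binding protein at 0.26 (limma adjusted p = 0.783) that was named after its values were seen. Itga11, the integrin alpha 11 subunit with which fibroblasts bind fibrillar collagen, had 6.80, 7.39 and 7.55 in mutant pools, against 7.67, 7.76 and 7.89 in control pools. All 6 mutant pools lay under all 6 control pools, as in 0.607% of all genes, with a difference of -0.47 (SE 0.11, 95% interval -0.71 to -0.23, unadjusted p = 0.00101, limma adjusted p = 0.196). It was -0.54 on BeadChip 1 and -0.40 on BeadChip 2. Pcolce2, an enhancer of the protease that trims procollagen, had 9.65, 9.77 and 10.03 in mutant pools, against 9.87, 10.19 and 10.36 in control pools, overlapping between 9.87 and 10.03 (difference -0.34, SE 0.09, unadjusted p = 0.00268, limma adjusted p = 0.312). A second Pcolce2 probe gave -0.38 (limma adjusted p = 0.149).

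Tgfb1, the growth factor that raises collagen synthesis in fibroblasts, had 5.11, 5.48 and 5.66 in mutant pools, against 5.56, 5.89 and 5.98 in control pools (difference -0.37, SE 0.11, unadjusted p = 0.00359, limma adjusted p = 0.364). These levels were near background, and the probe was not detected on every array. Over 19 alternatives the Tgfb1 difference ran from -0.58 to -0.22. Mmp14, a membrane-bound collagenase, had 9.49, 10.04 and 10.16 in mutant pools, against 9.97, 10.34 and 10.46 in control pools (difference -0.34, SE 0.12, unadjusted p = 0.0116, limma adjusted p = 0.55). In both genes most mutant pools lay low, and the groups overlapped. The basement membrane partners had 6 of 6 kept genes above 0, with a median of 0.10, led by Hspg2, perlecan (0.14, limma adjusted p = 0.872), and Nid1, the nidogen that joins laminin to collagen IV (0.15, limma adjusted p = 0.907). Of 15 kept genes of collagen processing 8 lay above 0 (median 0.02), and Plod1, a lysyl hydroxylase, stood at -0.21. Of 15 kept receptors 8 lay above 0 (median 0.02), and Cd44, a hyaluronan receptor, stood at 0.21. Of 19 kept genes of matrix turnover and TGF-beta 8 lay above 0 (median -0.01).

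**Figure D5:**
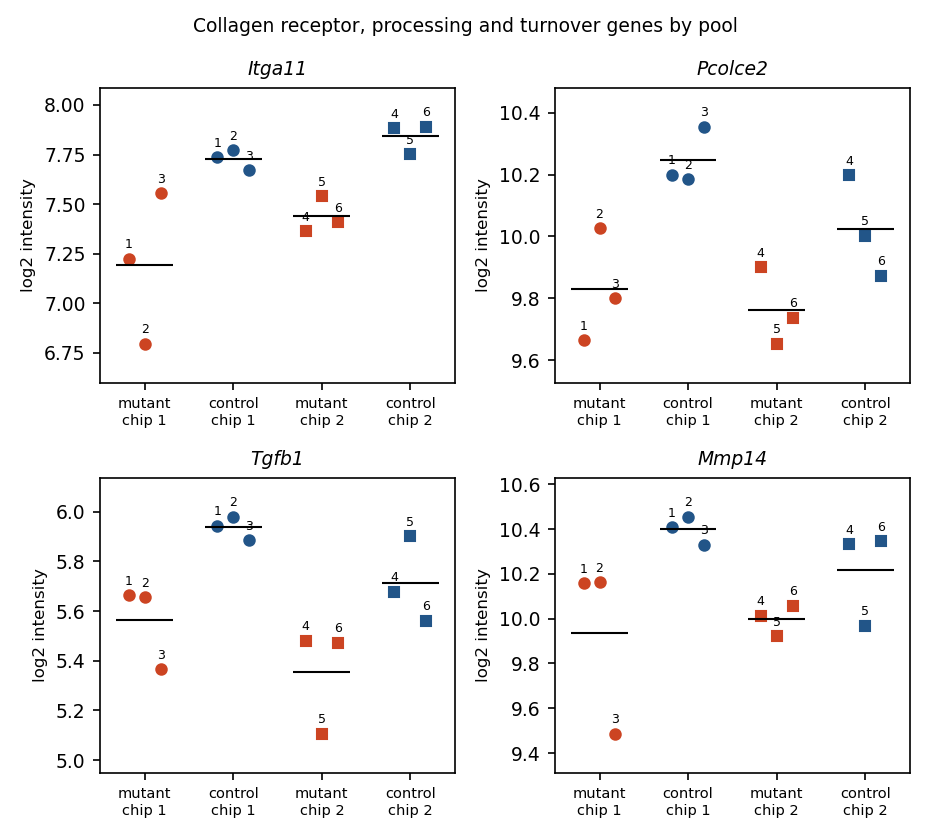
Log2 intensity of a collagen receptor (Itga11), a procollagen processing gene (Pcolce2), a growth factor (Tgfb1) and a collagenase (Mmp14) in each pool, drawn as in the other plots of pools: mutants in red, controls in blue, circles for BeadChip 1, squares for BeadChip 2, a line at each mean of 3. For Itga11 the mutants (6.80 to 7.55) lie under the controls (7.67 to 7.89).

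Matrix genes whose products assemble or occur together were followed across the 12 pools, as 6 pairs chosen after the values were seen, with permutation p adjusted over the 6. The adjustment does not cover that choice, so the p-values are descriptive. Pools were shuffled without regard to genotype or BeadChip, and correlations of other gene pairs were not taken as a background. Col1a2 and Col3a1 had Pearson's r of 0.82 (two-sided permutation test, p = 0.00138, adjusted p = 0.00828) and Spearman's rho of 0.82 (permutation p = 0.00185, adjusted p = 0.0111). Without the 2 pools farthest from the median of Col1a2 the r was 0.89, and it was 0.93 on BeadChip 1 and 0.68 on BeadChip 2. Col1a1 and Col1a2 had an r of 0.75 (permutation p = 0.00599, adjusted p = 0.018) and a rho of 0.66 (p = 0.0228, adjusted p = 0.0683), with 0.67 without 2 pools, 0.73 on BeadChip 1 and 0.85 on BeadChip 2. For Col1a1 and Col1a2 r was 0.90 among the 6 mutants and 0.30 among the 6 controls, and for Col1a2 and Col3a1 it was 0.81 among the mutants and 0.85 among the controls. Dcn and Lum had an r of 0.70 (permutation p = 0.0127, adjusted p = 0.0253) and a rho of 0.62 (p = 0.0384, adjusted p = 0.0736), with 0.51 without 2 pools, 0.86 on BeadChip 1, 0.70 on BeadChip 2, 0.48 among the mutants and 0.91 among the controls. Col6a1 and Col6a2 had an r of 0.64 (permutation p = 0.0268, adjusted p = 0.0403), which was 0.39 without 2 pools, so it rests on control 5 and mutant 3. Their rho was 0.59 (permutation p = 0.0491, adjusted p = 0.0736), and r was 0.76 on BeadChip 1, 0.58 on BeadChip 2, 0.93 among the mutants and 0.43 among the controls. No difference between correlations was tested.

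The basement membrane pairs did not pass an adjusted p of 0.05 over the 12 pools. Col4a1 and Col4a2, whose starts lie 21 bases apart, had an r of 0.42 (permutation p = 0.171, adjusted p = 0.205) and a rho of 0.31 (p = 0.317, adjusted p = 0.381), with r of 0.43 on BeadChip 1, 0.55 on BeadChip 2, 0.34 without 2 pools, 0.97 among the 6 mutants and -0.09 among the 6 controls. Lamb1 and Lamc1 had an r of 0.11 (permutation p = 0.72, adjusted p = 0.72) and a rho of 0.18 (p = 0.574, adjusted p = 0.574), with r of 0.17 on BeadChip 1, 0.16 on BeadChip 2, 0.21 without 2 pools, 0.40 among the mutants and 0.38 among the controls. For Ptgds and Slc6a13, chosen for their shared pattern, r is a description only: 0.62 over 12 pools, -0.09 on BeadChip 1 and 0.81 on BeadChip 2.

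Start windows were found for 30 of the 40 kept genes, as 39 windows of 300 bases in RefSeq's set of 32851. Their median GC content was 59.0%, against 52.7% over all windows, and they held a median of 12 CpG dinucleotides, against 7. On both strands TGACTCA occurred in 3 of the 39 (Col6a1, Igfbp2 and Ptgds, 7.69%), against 5.2% of all windows. TGCTGAC occurred in 1 (Igf2, 2.56%), against 4.67%, and CCAAT in 12 (30.8%), against 37.4%. None of the 3 motifs contains another. A match describes letters in a window and not a bound site.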

How the data were processed

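Total RNA of 12 pools was labelled as biotinylated cRNA, per the labels. The deposited intensity of each probe is a GenomeStudio summary (version not stated), per the submitters' processing notes, and was neither background-subtracted nor normalized: the lowest of an array was 42.4 to 45.8 and the median 86.1 to 99.6. A detection p-value stands beside each deposited intensity, per the file headers. In the series' other table the authors deposited processed intensities with column medians of 24.1 to 24.2 and the same ranks within each array, whose scaling and centring stay unknown.

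From the first table, limma 3.58.1 in R 4.3.3 applied neqc (offset 16, background inferred from the detection p-values, quantile normalization), and probes with a detection p-value under 0.05 on at least 6 of 12 arrays were kept. GEO's platform annotation gave 23978 of 25697 probes 1 gene symbol. A gene is represented by its brightest kept probe. A limma fit compared genotypes over 12 arrays, and another, with genotype by BeadChip as 4 groups, gave the other comparisons, with Benjamini-Hochberg adjustment over 13177 probes. The code was tested on simulated data.

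Named genes were the 6 smallest p of the genotype, genotype by BeadChip and BeadChip comparisons, the brightest of each role and every kept listed symbol. In other lists they were called genes and the 2 smallest p, or, for markers, the brightest gene and the largest change between BeadChips. Members and lists were chosen with earlier results of these data known. Alternatives were another offset, the processed table, no filter or detection on all 12 arrays, array weights, BeadChip or replicate blocks, 1 BeadChip alone, the mean of a gene's probes, and each pool left out. Correlations used 1e+05 permutations.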

Additional observations from a re-analysis of the deposited data

Results flagged for a closer look

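For 3 of 80 groups of 6 pools (40 genes, mutants and controls) 1 pool lay far from the other 5 by Dixon's criterion, where chance alone gives about 1 in 20 groups, or 4 here. For Col3a1, a type III collagen chain, mutant 2 stood at 10.0026, the next mutant at 9.2838 and the lowest at 9.0594. For Mgp, matrix Gla protein, control 5 stood at 10.5284, the next control at 9.6539 and the lowest at 9.1762. For Col16a1, a fibril-associated collagen, control 3 stood at 11.2983, the next control at 11.0747 and the lowest at 10.9641.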

How the results depend on the processing

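The count of member probes called by limma was 0 in all 5 comparisons and under every alternative run, including 19 for the genotype comparison. Among member genes and the partner genes that were followed, the lowest limma adjusted p over the alternatives was 0.0777 (Ptgds within BeadChip 2). Ltbp1, Plod1 and the second Pcolce2 probe by itself were not followed over the alternatives. The counts at an unadjusted p under 0.05 ranged from 1 to 4 for genotype, 0 to 5 within BeadChip 1, 2 to 6 within BeadChip 2, 2 to 6 for the change between BeadChips and 2 to 6 between BeadChips, against 1, 1, 3, 3 and 4. The median of member genes, within BeadChip 2, was -0.0515 and ranged from -0.0899 (without mutant replicate 6) to 0.0334 (without control replicate 5) when 1 pool was left out, and the other medians moved by less than the spread between pools (SD 0.0794). Without any 1 pool and under the other settings the differences of Ptgds stayed between 0.33 and 1.11 within BeadChip 1 and between -2.13 and -1.43 within BeadChip 2, and those of Slc6a13 between 0.14 and 0.48 and between -1.11 and -0.61. With the replicate number as a block 0 members were called in the genotype comparison and in the 3 others that allow it. Same-numbered mutant and control pools correlated by 0.02, 0.14, 0.16, -0.04, -0.12 and 0.19 in their deviations from the group means. With deviations taken within each BeadChip the values were 0.11, -0.03, 0.11, -0.16, -0.27 and 0.19. The pools were not treated as pairs in the main fits, but 6 such values cannot exclude a pairing. The correlations of gene pairs kept their side of the threshold with normexp at offset 50 and with the processed table, both chosen after seeing the data. The intervals given are for single genes, without adjustment over all probes, so the adjusted test asked for larger differences than they mark. The interval of Lama1 (-0.49 to -0.05) lay wholly below 0, yet its limma adjusted p in the genotype comparison was 0.678. With 6 pools a group, an uncalled gene is therefore not shown to be unchanged. Genes near background, such as Col19a1, Col25a1, Col27a1 and Tgfb1, are bounded by array background.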
